A study of Mus musculus with 14 samples.

Results

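Brown adipose tissue of control mice housed at 22 °C was compared with that of control mice housed at 30 °C, across the autosomal genes of a table of FPKM (fragments counted per unit of transcript length and of library depth). The 7 control animals, 4 at 22 °C and 3 at 30 °C, were taken by labelled genotype and housing temperature from a series of 14 mice. Of 35275 genes in the table, 13079 reached 1 FPKM in at least 3 libraries, and the 12607 of these on autosomes were described. All 7 controls were C57BL/6 mice of 8 weeks that carried the floxed LrpprcFF alleles and no Cre, so no wild-type Lrpprc locus was among them. The other 7 animals, 4 at 22 °C and 3 at 30 °C, were LrpprcFF Ucp1-Cre knockouts, in which Cre is driven by Ucp1 sequences and acts in cells that express Ucp1. They are used below to set the same temperature difference beside that of the controls. They also entered the filter, the scaling and the estimate of spread behind the standard errors and adjusted p-values of the controls. The labels name brown adipocytes, but the RNA came from homogenized tissue, so every cell type of the depot contributed. In such samples, fewer cells of a type and less RNA per cell cannot be told apart.

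Brown fat burns fuel to make heat. In the cold, sympathetic nerves release noradrenaline onto beta-adrenergic receptors of the brown adipocyte, cyclic AMP rises, stored fat is split, and the freed fatty acids both open and feed uncoupling protein 1 (Ucp1), which lets protons cross the inner mitochondrial membrane without making ATP. Room temperature is a mild cold stress for a mouse, and thermoneutral housing takes that demand away. Besides burning fuel, brown fat held in the cool also makes fatty acids from glucose, builds glycogen and takes up lipoprotein lipid.

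Housing temperature was not the only difference between the 2 groups of controls. Xist, transcribed from the inactive X chromosome, was at 12.9, 9.57 and 13.5 FPKM in the 3 controls at 30 °C and at no more than 0.0137 FPKM in the 4 at 22 °C. The Y-linked Ddx3y was at 16.4 to 24.8 FPKM at 22 °C and at no more than 0.0239 FPKM at 30 °C. The labels give no sex, and the sex-linked transcripts split both genotypes by temperature in the same way. By these transcripts the animals at 22 °C were male and those at 30 °C were female. Animal identifiers begin with E except in the controls 3 and 4 at 22 °C, where they begin with R; what the letters stand for is not given in the sources used here. Every difference below is therefore a difference between these 2 sets of animals. Temperature, sex and any batch that the identifiers mark cannot be told apart for any autosomal gene.

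Depth was 17.7 to 20.5 M fragments in the 7 control libraries. Values are given as scaled FPKM, the deposited FPKM divided by a factor for each library, which was 0.784 to 0.926 at 22 °C and 0.941 to 0.962 at 30 °C. The difference is the mean log2(scaled FPKM + 1) at 22 °C minus that at 30 °C, positive where expression was higher at 22 °C, with its standard error (SE). Means are given ± SD (n = 4 at 22 °C and n = 3 at 30 °C). A fold is the log2 difference taken out of the log scale, and both understate changes of genes near 1 FPKM. A gene was called where limma's moderated test gave a Benjamini-Hochberg adjusted p under 0.05.

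Of the 12607 autosomal genes, 4866 (38.6%) were called: 2514 (19.9%) were higher and 2352 (18.7%) were lower at 22 °C. In 43.4% of the genes every animal of one group lay beyond every animal of the other, and 4377 of the called genes were among these. Called genes that differed by at least 1 on the log2 scale numbered 748, of which 275 were higher and 473 were lower at 22 °C. With FPKM as deposited, in which the median over all genes lay at -0.13 and not at -0.01, 1659 were called higher and 3116 lower. With the controls fitted alone, without the knockouts, 3933 genes were called, 1834 higher and 2099 lower. Without one of the 7 control libraries at a time, 3357 to 5578 genes were called. With so large a share of the transcriptome called, a gene group is read below against 19.9% higher and 18.7% lower. A count from another fit is read against that fit's own calls among the 12607 genes. After a correction of each library for GC content these were 1560 (12.4%) higher and 1353 (10.7%) lower. They were 2924 and 2654 without the fourth control at 22 °C, and 2525 and 2274 without the third. Without any other single control they were 1735 to 1962 and 1622 to 1809. With only the E animals as the 22 °C group they were 3144 and 2751, and with only the R animals 1149 and 1033.

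Ucp1, Dio2, Ppargc1a and Elovl3, common readouts of heat production, were all higher at 22 °C, by 2.64-fold to 17.9-fold. Ucp1 was at 3314, 2563, 1317 and 1508 scaled FPKM in the 4 controls at 22 °C, and at 556, 1058 and 767 at 30 °C. Every animal at 22 °C was above every animal at 30 °C, and the 2 animals with E identifiers were the highest. Ucp1 was 2.64-fold higher at 22 °C (log2 1.40, SE 0.35, limma adjusted p = 0.00789). An exact two-sided permutation test over the 7 animals gave p = 0.0571, the smallest that the 35 possible splits allow. Against the 2 R animals alone as the 22 °C group the difference was 0.87 (adjusted p = 0.101), which did not pass, and against the 2 E animals alone it was 1.92.

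Dio2, the deiodinase that makes active thyroid hormone inside the brown adipocyte, was at 27.7, 23.7, 27.0 and 14.9 scaled FPKM at 22 °C and at 0.925, 8.55 and 3.60 at 30 °C. The groups did not overlap, and Dio2 was 5.39-fold higher at 22 °C (log2 2.43, SE 0.48, adjusted p = 0.0025). Ppargc1a, the coactivator that drives mitochondrial gene expression, was at 9.42, 13.8, 22.6 and 14.6 at 22 °C against 3.16, 2.71 and 4.04 at 30 °C. It was 3.62-fold higher at 22 °C without overlap (log2 1.85, SE 0.28, adjusted p = 0.000613), and its highest animal was an R animal. Elovl3, an elongase of very long fatty acids known to be induced by cold in brown fat, was at 84.3, 44.7, 10.8 and 10.5 at 22 °C and at 0.0735, 1.40 and 0.341 at 30 °C. The groups did not overlap, and within 22 °C the E animals lay above the R animals. The difference of 4.16 on the log2 scale (SE 0.78, adjusted p = 0.00184) depends on the pseudocount, since 2 of the 3 animals at 30 °C were under 1 FPKM. With limma voom on recovered reads, which needs no such pseudocount on FPKM, Elovl3 gave 6.12.

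**Figure D1:**
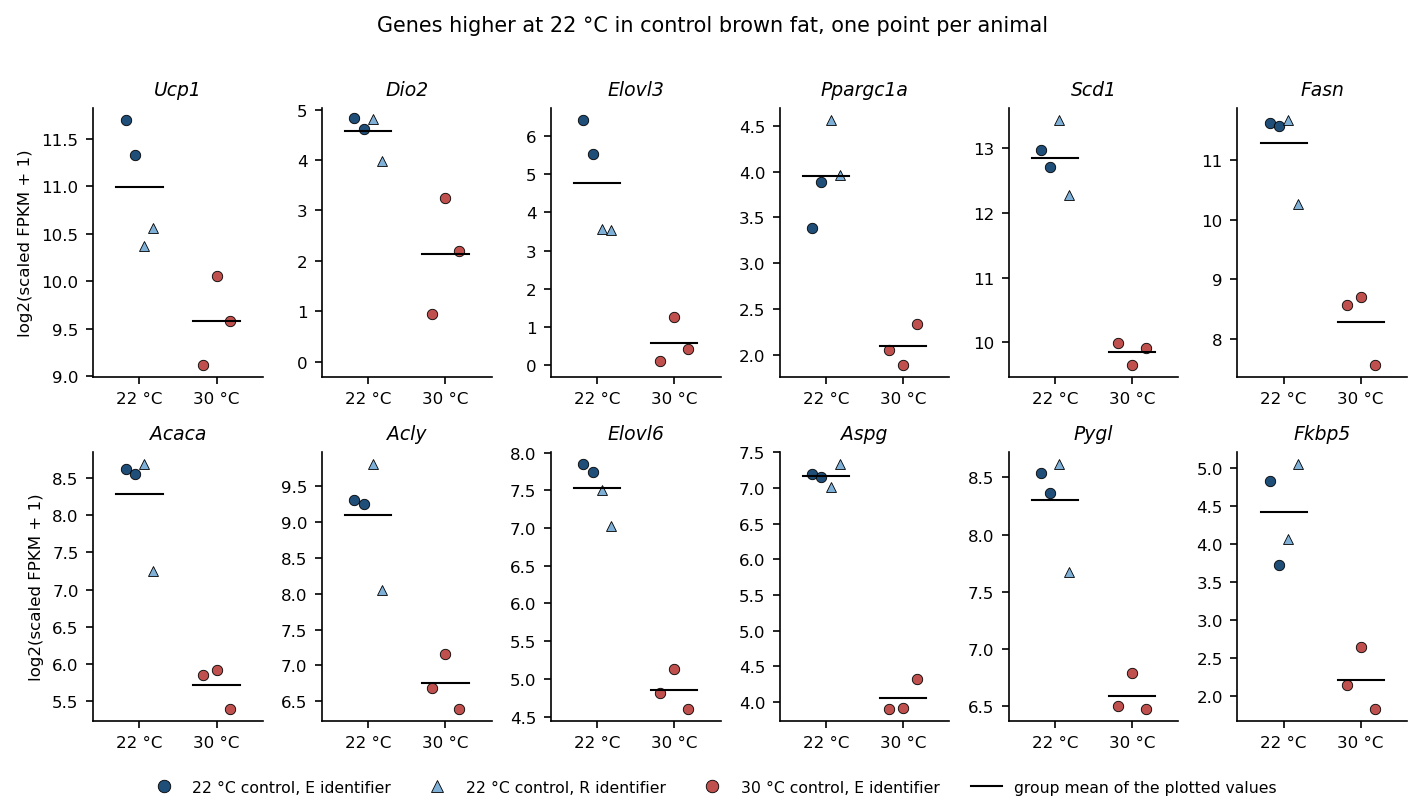
Expression of 12 genes as log2(scaled FPKM + 1) in each of the 7 control animals, with housing temperature on the x axis, a marker shape for each identifier letter and a line at each group mean. In all 12 genes every animal at 22 °C lies above every animal at 30 °C, and the 2 R animals are the lower ones at 22 °C for Ucp1 and Elovl3.

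Cyclic AMP acts on many thermogenic genes through factors that bind the palindrome TGACGTCA or its shorter core TGACG. The sequences before the transcription start are shown for Ucp1 and for the 2 genes, among the thermogenic group and the largest changes, whose RefSeq window held the palindrome. These candidates numbered 53, of which 41 had a window to search. The windows reach from 250 bases before to 50 bases after the start, both strands were searched, and TGACG lies within TGACGTCA, so every window with the palindrome also counts for the core. Each sequence begins 250 bases upstream and ends at the start, except that of Clstn3, which runs 7 bases past it to the end of its match. Capitals mark the match, with coordinates of build GRCm38.p6 as RefSeq gives them.
Dio2, chr12:90739039-90739288, minus strand, palindrome: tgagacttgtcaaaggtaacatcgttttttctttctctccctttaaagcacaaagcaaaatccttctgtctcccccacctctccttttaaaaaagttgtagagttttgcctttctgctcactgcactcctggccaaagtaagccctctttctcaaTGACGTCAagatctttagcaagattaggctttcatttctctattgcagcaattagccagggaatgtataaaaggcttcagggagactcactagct
Clstn3, chr6:124464778-124465034, minus strand, palindrome: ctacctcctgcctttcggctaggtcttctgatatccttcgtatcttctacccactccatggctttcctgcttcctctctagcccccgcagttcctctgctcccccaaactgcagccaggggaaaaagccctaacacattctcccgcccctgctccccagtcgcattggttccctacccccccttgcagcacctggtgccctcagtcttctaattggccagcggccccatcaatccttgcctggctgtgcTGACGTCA
Ucp1, chr8:83290098-83290347, plus strand, core only: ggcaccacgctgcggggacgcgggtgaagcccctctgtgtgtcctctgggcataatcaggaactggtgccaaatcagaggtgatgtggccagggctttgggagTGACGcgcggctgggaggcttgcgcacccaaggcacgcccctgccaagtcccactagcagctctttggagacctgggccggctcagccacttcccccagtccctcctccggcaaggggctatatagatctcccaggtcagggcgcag
The palindrome begins 95 bases before the start in Dio2 and spans the start in Clstn3, and the core begins 147 bases before the start in Ucp1. Of all 32851 windows, 1.79% held the palindrome and 20.8% held the core. A match describes the letters and not binding. Clstn3, which encodes calsyntenin 3, was at 107, 101, 103 and 86.4 scaled FPKM at 22 °C and at 45.1, 78.1 and 82.7 at 30 °C. These values are per gene and do not separate the transcripts of the locus. The groups did not overlap, but the difference of 0.57 (SE 0.22, adjusted p = 0.0549) did not pass the test.

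The thermogenic group as a whole held 29 tested genes, of which 10 (34.5%) were higher and 2 (6.90%) were lower at 22 °C. Their median log2 difference was 0.35, beside -0.01 over all autosomal genes. Acot11, an acyl-CoA thioesterase that restrains fatty acid use in brown fat, was 4.72-fold higher (log2 2.24, SE 0.36, adjusted p = 0.000941), although 760 bases of its transcript match its neighbour Fam151a at 99.868% identity. Cox7a1, a cytochrome oxidase subunit of muscle and brown fat, was 1.39-fold higher (adjusted p = 0.0448). Cox8b, its companion subunit, was at 3921 ± 518 scaled FPKM at 22 °C (SD, n = 4) and 3073 ± 371 at 30 °C (SD, n = 3), a difference that did not pass (adjusted p = 0.133). The lower members were Fabp3, a cytosolic fatty acid carrier, at 528 ± 110 against 1256 ± 163, and Lhx8, a transcription factor marking brown fat, at 2.39 ± 0.925 against 5.15 ± 1.78. The other called members, Otop1, Nrg4, Cidea and Letmd1, are named after their values were seen and had differences of 1.28, 1.02, 0.56 and 0.71. Prdm16 and Ebf2, which set brown fat identity and are also named after their values were seen, gave 0.29 and 0.26 and did not pass. The calls of Cox7a1, Cidea and Letmd1 were lost without any of several single animals (adjusted p up to 0.151, 0.138 and 0.123), that of Fabp3 without the second control at 30 °C (0.0525) and that of Lhx8 without the third (0.0811).

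Of 30 genes of adrenergic and cyclic AMP signalling, 8 (26.7%) were higher and 6 (20%) were lower at 22 °C, beside 19.9% and 18.7% of all genes. The number higher was 12 without the fourth control at 22 °C and 4 or 5 without any other single control but the third at 22 °C. Over all 12607 genes these fits called 2924 and 1735 to 1962 higher. Adrb3, the main beta receptor of adipocytes, was at 88.8, 128, 95.7 and 43.7 scaled FPKM at 22 °C and at 133, 100 and 108 at 30 °C. Its groups overlapped (log2 -0.44, SE 0.31, adjusted p = 0.281). Adrb1, another beta receptor, fell by 1.26 (adjusted p = 0.0174), with 1 animal at 30 °C inside the range at 22 °C. Downstream, the orphan nuclear receptors moved apart: Nr4a3 was higher at 22 °C (3.30 ± 1.68 against 0.374 ± 0.231, adjusted p = 0.0106), and Nr4a1 was lower (29.5 ± 28.4 against 177 ± 118, adjusted p = 0.00735). The phosphodiesterases Pde4d and Pde3b, which break down cyclic AMP, were 1.92-fold and 1.90-fold higher at 22 °C, and Prkar2b, the regulatory subunit of protein kinase A most used in fat, was 1.77-fold higher. Prkaca, the catalytic subunit, overlapped between groups (adjusted p = 0.212). The calls of Adrb1, Pde3b, Pde4d and Prkar2b were lost without the second control at 30 °C (adjusted p = 0.0962, 0.0663, 0.0541 and 0.0597).

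Genes of fatty acid synthesis were mostly higher at 22 °C. Of 21 genes tested, 17 (81.0%) were higher and 2 (9.52%) were lower at 22 °C, with a median difference of 1.26. The counts were the same, 17 and 2, after correction for GC content. With the 2 R animals alone as the 22 °C group, 11 were higher and 1 was lower, with a median of 1.01. Scd1, the desaturase that makes oleate, was at 8054, 6722, 11120 and 4980 scaled FPKM at 22 °C and at 1016, 804 and 964 at 30 °C. The lowest animal at 22 °C was above the highest at 30 °C, and Scd1 was 8.01-fold higher (log2 3, SE 0.33, adjusted p = 0.000141). Fasn, fatty acid synthase, was at 3158, 3026, 3253 and 1229 against 381, 417 and 190, a 7.96-fold difference (log2 2.99, SE 0.41, adjusted p = 0.000416). Acly, which makes cytosolic acetyl-CoA from citrate, was at 631, 609, 896 and 264 against 102, 143 and 83.3, a 5.10-fold difference (log2 2.35, SE 0.43, adjusted p = 0.00161). In these 3 genes and in Acaca and Me1, the fourth control at 22 °C was the lowest of its group and still above all animals at 30 °C.

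Further steps of the pathway were also higher. Acaca, acetyl-CoA carboxylase, was at 394, 376, 411 and 151 scaled FPKM at 22 °C and at 56.5, 59.4 and 41.1 at 30 °C, a 5.90-fold difference (log2 2.56, SE 0.39, adjusted p = 0.000668). The elongase Elovl6 was at 229, 214, 181 and 129 against 27.0, 33.9 and 23.4, and was 6.43-fold higher without overlap (log2 2.68, SE 0.25, adjusted p = 4.3e-05). Me1, malic enzyme, which supplies NADPH, and Acsl5, which activates fatty acids, were 5.10-fold and 5.08-fold higher (adjusted p = 0.000745 and 0.000252). Thrsp, a lipogenic protein under thyroid hormone control, was 2.10-fold higher at 2267 ± 300 against 1082 ± 192. The lower members were the polyunsaturated fatty acid desaturases Fads1 (6.32 ± 0.864 against 10.2 ± 0.499) and Fads2 (5.31 ± 1.74 against 8.86 ± 0.224). The lipogenic transcription factors Srebf1 and Mlxipl, named after their values were seen, gave -0.02 and 0.15 and did not pass. Reads of Acaca, Elovl6 and Me1 could be shared with the pseudogene-like loci Gm5182, Gm11295 and Gm7049, which match them at 97.391% to 99.199% identity over 805 to 6118 bases, and Acsl5 shares 169 bases with Zdhhc6.

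Fewer genes of triglyceride assembly and breakdown were called. Of 15 genes of triglyceride synthesis, 4 were higher (26.7%) and 1 was lower. Agpat2, the acyltransferase that makes phosphatidic acid, was at 925, 813, 648 and 546 scaled FPKM at 22 °C and at 208, 286 and 261 at 30 °C, 2.87-fold higher without overlap (adjusted p = 0.000526), and Mogat1 was 2.47-fold higher. Dgat2, the final acyltransferase, overlapped between groups (1554 ± 194 against 1262 ± 200, adjusted p = 0.293). Of 14 genes of lipolysis and the lipid droplet, 2 were higher and 4 were lower (28.6%). Without any one control at 30 °C, 2 were lower, beside 1622 to 1784 of all 12607 genes. The lipase Pnpla2 (1525 ± 213 against 2250 ± 131), the hormone-sensitive lipase Lipe (325 ± 65.3 against 475 ± 35.9) and the droplet coat protein Plin1 (665 ± 182 against 980 ± 38.3) were each lower at 22 °C. None of these 3 calls held after correction for GC content (adjusted p = 0.409, 0.232 and 0.405). Abhd5, the coactivator of Pnpla2, was 2.15-fold higher at 22 °C and did hold (adjusted p = 0.0028, corrected 0.0118). The call of Plin1 was also lost without any one of the controls at 30 °C (adjusted p of 0.0521 to 0.0685).

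Uptake of lipoprotein lipid was split. Of 16 genes, 6 (37.5%) were higher and 5 (31.2%) were lower at 22 °C. Without the second or the third control at 30 °C, 3 were lower, beside 1622 and 1665 of all 12607 genes. Lpl, the lipase that frees fatty acids from lipoproteins, was at 1650, 1400, 1034 and 1377 scaled FPKM at 22 °C and at 641, 666 and 628 at 30 °C. It was 2.09-fold higher without overlap (log2 1.06, SE 0.15, adjusted p = 0.000483). Angptl4, the secreted inhibitor of Lpl, went the other way, at 32.9, 134, 119 and 67.1 against 350, 291 and 400. All animals at 22 °C were below all at 30 °C, and Angptl4 fell by 2.14 on the log2 scale (SE 0.40, adjusted p = 0.00187). The receptor Vldlr and the apolipoprotein Apoc1 were 2.23-fold and 2.82-fold higher, and the fatty acid carrier Fabp4, the highest of the group at 12530 ± 1492 against 8221 ± 1004, was 1.52-fold higher (adjusted p = 0.0139, and 0.266 after correction for GC content). Without the first control at 30 °C the call of Fabp4 was lost (adjusted p = 0.0658), and with quantile normalization its difference was -0.0079.

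Of 28 genes of fatty acid oxidation, 9 (32.1%) were higher and the other 19 did not pass. Ehhadh, an enzyme of the peroxisome, was 3.16-fold higher, and Slc25a20, the carnitine carrier of mitochondria, was 1.83-fold higher. With the 2 E animals alone as the 22 °C group, 18 of 28 were called higher, with a median of 0.65 against 0.22 with all 4 animals. With the 2 R animals alone, 3 were called higher and the median was -0.04. Without the fourth control at 22 °C, an R animal, 15 were called higher. Of all 12607 genes, 3144 were called higher with the E animals alone, 1149 with the R animals alone and 2924 without the fourth control. Of 25 genes of glucose uptake and glycolysis, 9 (36.0%) were higher and 3 (12%) were lower. Mpc1, a subunit of the pyruvate carrier, was at 38.3, 35.3, 39.6 and 36.7 scaled FPKM at 22 °C and at 13.7, 13.8 and 14.4 at 30 °C. The animals of each group lay close together and far from the other group (log2 1.36, SE 0.18, adjusted p = 0.000362). Gpd2, the mitochondrial glycerophosphate dehydrogenase, and the hexokinase Hk2 were 3.08-fold and 2.48-fold higher, and the glucose transporter Slc2a1 was lower at 3.47 ± 0.175 against 5.76 ± 0.311 (adjusted p = 0.0109).

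Of the glycogen genes, 7 of 18 (38.9%) were higher and the other 11 did not pass. Pygl, a glycogen phosphorylase, was at 371, 329, 391 and 203 scaled FPKM at 22 °C and at 89.4, 110 and 88.1 at 30 °C, 3.27-fold higher without overlap (adjusted p = 0.000599). The synthase Gys2 was 2.64-fold higher, and the phosphatase subunits Ppp1r3c and Ppp1r3b, which bring glycogen to protein phosphatase 1, were 2.94-fold and 2.71-fold higher. Genes of synthesis and of breakdown were both among those called. Without the first control at 30 °C the calls of Ppp1r3c and Ppp1r3b were lost (adjusted p = 0.0503 and 0.0985), and that of Ppp1r3b was also lost without 4 other single animals. Of 21 genes of the citric acid cycle and pyruvate dehydrogenase, 4 (19.0%) were higher, led by Pdhb at 864 ± 178 against 344 ± 44.0 (2.47-fold, adjusted p = 0.000523), and Idh2 was lower at 241 ± 13.4 against 439 ± 26.1. Without the fourth control at 22 °C, 12 of the 21 were called higher. Breakdown of branched-chain amino acids gave 7 of 19 (36.8%) higher, led by Mut, at 94.3, 76.2, 44.0 and 32.3 against 26.2, 29.5 and 27.6. The E animals were well above the R animals here, and the group's median of 0.39 became -0.04 with the 2 R animals alone as the 22 °C group. After correction for GC content 2 of the 19 were higher, and 1 was with the controls fitted alone. Leaving out the fourth control at 22 °C gave 12, the third at 30 °C gave 3, and any other but the third at 22 °C gave 4. Of all 12607 genes these fits called 2924, 1933 and 1735 to 1962 higher.

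**Figure D2:**
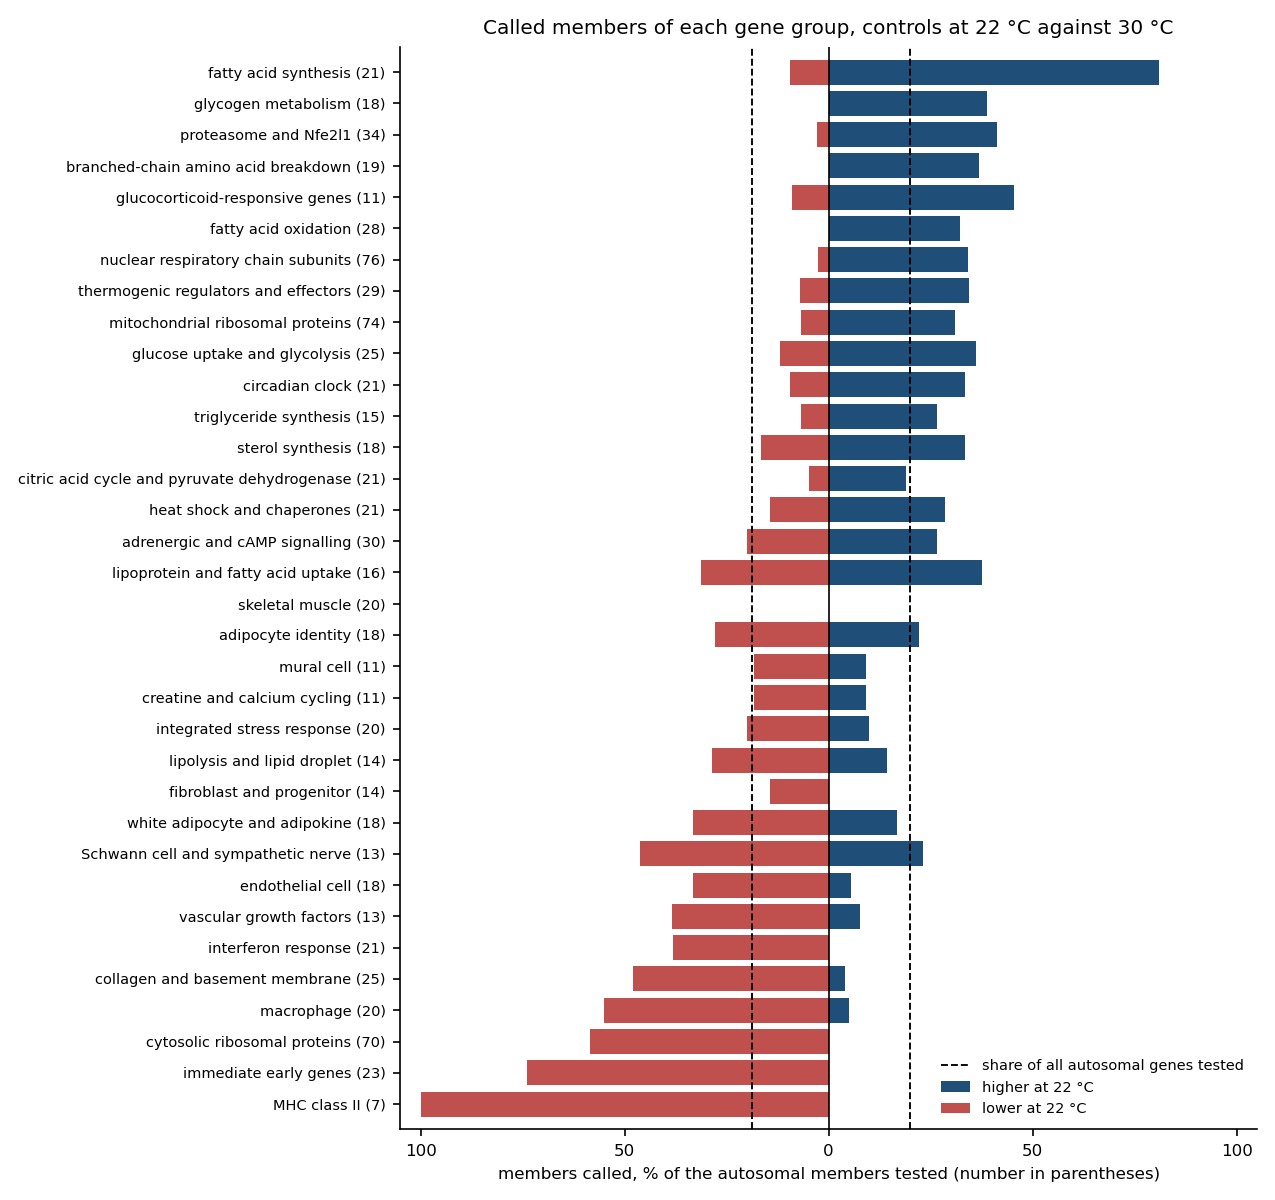
Share of the tested members of each gene group that were called higher (to the right) or lower (to the left) at 22 °C in controls, with the number tested in parentheses and dashed lines at the shares over all autosomal genes, 19.9% and 18.7%. Fatty acid synthesis stands farthest to the right at 81.0%, and MHC class II, immediate early and cytosolic ribosomal protein genes stand farthest to the left, and groups of which most members reached the minimum only with the libraries at 30 °C are left out.

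Of 76 nuclear-encoded subunits of the respiratory chain, 26 (34.2%) were higher and 2 (2.63%) were lower at 22 °C, with a median difference of 0.23. Without the first control at 22 °C 16 were higher, and without the first or the third at 30 °C 13 and 17 were. In these fits 1962, 1908 and 1933 of all 12607 genes were higher. With the controls fitted alone 15 were higher, and with the 2 R animals alone as the 22 °C group 9 were. The differences were small: Ndufs4 of complex I was 1.71-fold higher (162 ± 20.4 against 93.4 ± 3.33 scaled FPKM) and Uqcrh of complex III 1.58-fold higher. Ndufs7 was lower, at 561 ± 102 against 902 ± 58.4. Among 74 mitochondrial ribosomal proteins, 23 (31.1%) were higher and 5 (6.76%) were lower, with Mrpl50 2-fold higher. Among 34 proteasome genes 14 (41.2%) were higher, with Psma3 1.61-fold higher. After correction for GC content 7 of the 34 were higher, beside 12.4% of all genes. Cytosolic ribosomal proteins went the other way: 41 of 70 (58.6%) were lower, with a median of -0.44, and Rpl35 was at 19.6 ± 5.35 against 38.2 ± 0.762. With the 2 R animals alone as the 22 °C group 8 of the 70 were lower, beside 1033 of all 12607 genes. With the 2 E animals alone 50 were lower, and after correction for GC content 26 were lower and 1 was higher. With FPKM as deposited, without the scaling, 48 of the 70 were lower and the respiratory chain subunits were 13 higher and 2 lower. On that scale the mitochondrial ribosomal proteins were 7 higher and 9 lower, beside 1659 and 3116 of all 12607 genes, so their number of higher calls depends on the scaling. Their median there was 0.02, beside -0.13 over all genes, and 0.17 beside -0.01 with the scaling. With 1 control left out, other than the third or the fourth at 22 °C, the mitochondrial ribosomal proteins called higher numbered 9 to 15 and the cytosolic ones called lower 22 to 25. Over all 12607 genes the same fits called 1735 to 1962 higher and 1622 to 1809 lower. Without the third control at 30 °C, 9 of the 74 mitochondrial ones were higher, beside 1933 of all genes, and 25 of the 70 cytosolic ones were lower, beside 1665.

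Genes known to respond to glucocorticoids gave 5 of 11 (45.5%) higher and 1 lower at 22 °C, with a median of 0.90. Fkbp5, a chaperone of the glucocorticoid receptor, was at 27.4, 12.3, 15.8 and 32.3 scaled FPKM at 22 °C and at 3.43, 5.24 and 2.56 at 30 °C. The groups did not overlap, and Fkbp5 was 4.64-fold higher (log2 2.21, SE 0.46, adjusted p = 0.00316). The transcription factor Zbtb16 was 4.46-fold higher (34.9, 41.9, 10.4 and 18.6 against 4.96, 6.18 and 2.74), and the metallothionein Mt2 3.08-fold higher. The lower member was Lcn2, a secreted iron-binding protein, at 0.222 ± 0.101 against 1.85 ± 0.432. Lcn2 reached the minimum of 1 FPKM only with the libraries at 30 °C, so its call is not read as a count. Of 21 clock genes, 7 (33.3%) were higher and 2 (9.52%) were lower. Ciart and Per2, repressors of the clock, were 2.95-fold and 2.25-fold higher, Nr1d2 was 2.55-fold higher, and Nr1d1, its close relative, was lower at 65.4 ± 10.9 against 126 ± 18.2 (adjusted p = 0.00116). Dbp, a direct output of the clock, overlapped between groups (adjusted p = 0.12). The labels give no hour of collection.

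Immediate early genes are switched on within minutes by many stimuli. Of 23 tested, 17 (73.9%) were lower and the other 6 did not pass, with a median of -1.63. Among the 20 that reached the minimum of 1 FPKM at 22 °C, 15 were lower, and 3 reached it only with the libraries at 30 °C. After correction for GC content 13 were lower, and without the second control at 30 °C 11 were. Those fits called 1353 and 1622 of all 12607 genes lower. Egr1 was at 1.40, 6.85, 2.05 and 7.80 scaled FPKM at 22 °C and at 9.09, 125 and 52.5 at 30 °C. Fos was at 0.207, 1.74, 1.61 and 1.51 against 2.99, 38.5 and 17.6. In both genes the groups did not overlap, the first control at 30 °C lay close to the animals at 22 °C, and the other 2 were far above. Egr1 fell by 3.11 (SE 0.73, adjusted p = 0.00582) and Fos by 2.73 (SE 0.61, adjusted p = 0.00469). Jun, at 12.4, 13.8, 19.7 and 18.0 against 47.3, 158 and 118, and the matrix protein gene Ccn1, at 8.85 ± 1.87 against 74.5 ± 57.0, also had their lowest value at 30 °C in the first control. Jun fell by 2.54 (adjusted p = 0.000308), and 232 bases of it overlap the antisense gene Junos, whose reads cannot be separated without strand. The summed scaled FPKM of the 23 genes was 136 to 325 at 22 °C and 315, 1364 and 832 at 30 °C.

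Genes of immune cells were lower at 22 °C in counts that rested in part on single animals. All 7 tested MHC class II genes were lower, with a median of -1.34. Of these, 1 reached the minimum of 1 FPKM only with the libraries at 30 °C. With the 2 R animals alone as the 22 °C group, 2 of the 7 were lower. Cd74, the invariant chain, was at 31.3, 66.4, 68.0 and 79.6 scaled FPKM at 22 °C and at 122, 153 and 358 at 30 °C, and H2-Ab1 was at 24.6, 42.0, 42.3 and 54.4 against 91.5, 114 and 273. The groups did not overlap in either gene, and the third control at 30 °C was the highest of all. Cd74 fell by 1.68 (SE 0.40, adjusted p = 0.0061) and H2-Ab1 by 1.83 (SE 0.39, adjusted p = 0.00355). Of 20 macrophage markers 11 (55.0%) were lower, among them Cd68 (3.35 ± 0.673 against 13.3 ± 8.35) and the protease Ctss (3.81 ± 1.51 against 29.4 ± 32.6). Of the 20, 5 reached the minimum of 1 FPKM only with the libraries at 30 °C. Among the 15 that reached it at 22 °C, 10 were lower. Cd163, a marker of resident macrophages, was higher at 22 °C, at 3.89 ± 0.860 against 1.47 ± 0.271 (adjusted p = 0.00381). Of 15 tested lymphocyte markers, 11 reached the minimum of 1 FPKM only with the libraries at 30 °C, so no count is read from them. The summed level of all 23 listed was 9.68 to 19.3 at 22 °C and 35.5 to 90.8 at 30 °C. Jchain of plasma cells was at 1.21 ± 0.416 against 13.9 ± 11.5. Of 21 interferon-induced genes 8 (38.1%) were lower, led by Bst2 (35.2 ± 8.26 against 111 ± 36.8). The 23 listed macrophage markers summed to 86.2 to 121 at 22 °C and 166, 220 and 586 at 30 °C, with the third control at 30 °C the highest. Without that animal 1 of the 20 macrophage markers was called lower, beside 1665 of all 12607 genes. The calls of Cd68 and Ctss were then lost (adjusted p = 0.0686 and 0.0817). With the 2 R animals alone as the 22 °C group 1 of the 20 was called, as higher.

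**Figure D3:**
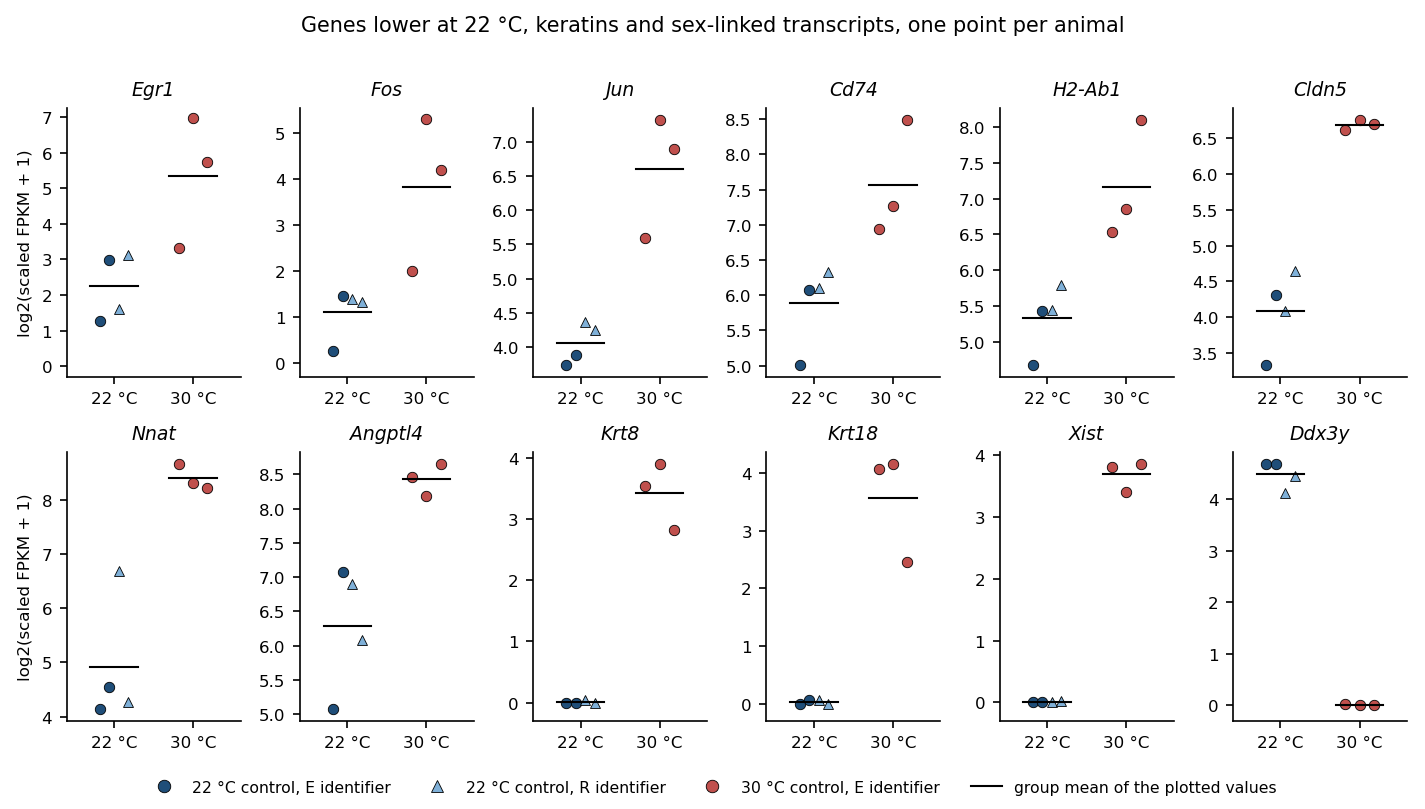
Expression of 12 genes as log2(scaled FPKM + 1) in each of the 7 control animals, drawn as in the plot of genes higher at 22 °C. In the first 10 genes every animal at 22 °C lies below every animal at 30 °C, Krt8 and Krt18 are near 0 at 22 °C, and the sex-linked Xist and Ddx3y separate the groups in opposite directions.

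Keratins of simple epithelia were among the largest differences in this direction. Krt8 was at 0, 0, 0.0308 and 0 scaled FPKM at 22 °C and at 10.6, 14 and 6.06 at 30 °C. Krt18 was at 0, 0.0458, 0.0397 and 0 against 15.7, 16.8 and 4.49, and Krt19 was at no more than 0.0814 against 19.4, 17.2 and 5.03. The 3 keratins were at most 0.0814 in every animal at 22 °C and at least 4.49 in every animal at 30 °C. Differences of -3.41, -3.53 and -3.66 (adjusted p = 6.81e-06, 4.61e-05 and 0.000273) depend on the pseudocount, and Krt8 shares 941 bases at 98.618% identity with the pseudogene Krt8-ps. Of 25 epithelial markers listed after these values were seen, 9 passed the filter, 7 of them only with the libraries at 30 °C, so no count is read from them. The summed level of all 25 was 6.26 to 9.18 at 22 °C and 93.2, 104 and 45.5 at 30 °C, Epcam, named after its values were seen, was at 2.80, 2.70 and 1.69 at 30 °C, and the milk protein gene Csn2 was at 0 in all 7 controls. How far epithelial cells in the dissected tissue, the sex-linked difference or temperature carry this was not tested.

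Vessel and matrix genes were lower in part. Cldn5, the tight-junction protein of endothelium, was at 9.11, 18.7, 16 and 24.0 scaled FPKM at 22 °C and at 96.5, 107 and 103 at 30 °C. The groups were far apart, and Cldn5 fell by 2.59 (SE 0.31, adjusted p = 0.000226). In the endothelial group 6 of 18 (33.3%) were lower and Flt1, a receptor for Vegfa, was higher at 33.2 ± 14.8 against 19.6 ± 0.761. The fourth control at 22 °C stood apart, with a summed level of the 18 of 733 against 335 to 398 in the other 3 at 22 °C and 683 to 721 at 30 °C. Without it 14 of the 18 were lower, and 3 were without the first control at 30 °C or after correction for GC content. The same fits called 2654, 1784 and 1353 of all 12607 genes lower. The call of Flt1 was lost without any one control at 30 °C (adjusted p up to 0.10). Of 13 vascular growth factors 5 (38.5%) were lower, led by Adm (1.55 ± 0.683 against 5.54 ± 1.04). The number lower was 8 without the fourth control at 22 °C, and 3 without the second control at 22 °C or any one at 30 °C. Over all 12607 genes these fits called 2654 and 1622 to 1809 lower. Among the 12 that reached the minimum of 1 FPKM at 22 °C, 4 were lower. Vegfa itself, at 188 ± 13.8 against 217 ± 5.71, did not pass (log2 -0.21, adjusted p = 0.339). Of 25 genes of collagen and basement membrane 12 (48.0%) were lower, among them Col6a2 (23.8 ± 2.98 against 46.2 ± 1.93). Among the 24 that reached the minimum at 22 °C, 11 were lower. After correction for GC content 3 of the 25 were lower, beside 10.7% of all genes. Of 25 genes of cell division, 14 reached the minimum only with the libraries at 30 °C, among them Cdc20 (0.331 ± 0.204 against 1.77 ± 0.745), so no count is read from them.

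Skeletal muscle, which borders the depot, differed between single animals far more than between groups. The summed scaled FPKM of 21 muscle genes was 873, 659, 8931 and 5257 at 22 °C and 16830, 5830 and 106 at 30 °C. Acta1, skeletal actin, was at 156, 118, 1799 and 1222 at 22 °C, and at 5422, 1738 and 7.47 at 30 °C. None of the 20 muscle genes passed the test or reached an unadjusted p under 0.05 with limma, and limma voom on recovered reads also called 0 of them. The ranges of the groups overlapped, and the part of muscle RNA in other genes was not tested.

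Adipokine and white fat genes were mixed, with 3 of 18 higher and 6 (33.3%) lower at 22 °C. Without the second control at 22 °C or the first or the third at 30 °C, 2 or 3 were lower. Among all 12607 genes 1665 to 1809 were lower in those fits. Lep, leptin, was at 20.2, 6.46, 16.7 and 9.40 scaled FPKM at 22 °C and at 33.7, 38.0 and 40.8 at 30 °C. The groups did not overlap, and Lep fell by 1.56 (SE 0.52, adjusted p = 0.0305). This call was lost without any one of 5 animals, with an adjusted p up to 0.0853. Nnat, neuronatin, an imprinted gene of fat and brain, was at 16.7, 22.3, 102 and 18.3 against 405, 317 and 298. It fell by 3.49 (SE 0.49, adjusted p = 0.000479), with the third control at 22 °C above its group. Nampt, which makes NAD, and Rbp4, the retinol carrier, were 2.61-fold and 2.19-fold higher at 22 °C. Ckb, the creatine kinase of brown fat, was lower at 22 °C, at 25.9, 35.7, 30.8 and 45.7 against 140, 208 and 118 (log2 -2.13, SE 0.36, adjusted p = 0.00116), and Phgdh, the first enzyme of serine synthesis, was at 10.3 ± 6.71 against 53.5 ± 8.85.

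Some of the largest differences lay outside all groups. Aspg, a lysophospholipase and asparaginase, was at 146, 141, 128 and 160 scaled FPKM at 22 °C and at 14, 14.2 and 19.1 at 30 °C. Its animals varied little within each group, which made it 8.70-fold higher with an SE of 0.15 (log2 3.12, adjusted p = 5.46e-08). Lars2, the mitochondrial leucyl-tRNA synthetase, was at 144, 134, 86.3 and 481 against 30.8, 31.3 and 31.4. All animals at 22 °C were higher, but the fourth stood far above the other 3 (log2 2.40, SE 0.59, adjusted p = 0.00718). Tusc3, a subunit of the enzyme that adds glycans to proteins, was at 9.92, 10.2, 16 and 15.9 against 83.0, 101 and 145, a fall of 2.98 (SE 0.24, adjusted p = 1.06e-05). Plekhg6, a guanine nucleotide exchange factor, was at 1.13 ± 0.617 against 12 ± 1.38 (log2 -2.65, adjusted p = 3.3e-05). Lrpprc, whose alleles are floxed in all 7 animals, overlapped between groups, at 43.5 ± 15.8 against 31.2 ± 1.21 (adjusted p = 0.206).

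The direction of the difference went with base composition. Across genes, Spearman's rho between the temperature difference and the GC content of the transcript was -0.577, a description over 12607 genes that share the same 7 libraries. Of the 3152 genes with the lowest GC content (18.1 to 45.5%), 1466 were higher and 78 were lower at 22 °C, and of the 3152 with the highest (54.8 to 83.3%), 75 were higher and 1333 were lower. The same relation was -0.491 in the knockouts, whereas pairs of controls within 30 °C gave -0.10 to 0.27 and R minus E animals within 22 °C gave 0.389. After a smooth correction of each library for GC content 2913 genes (23.1%) were called, 1560 (12.4%) higher and 1353 (10.7%) lower, and 2164 of the 4866 were called in the same direction, 44.5%. No gene was called in opposite directions with limma in the 2 fits. Ucp1 kept a difference of 1.24 (adjusted p = 0.0223), and all 24 largest differences named here were called after the correction. Such a correction also removes any true difference that follows GC content, and which share of the relation is technical cannot be told apart from temperature.

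**Figure D4:**
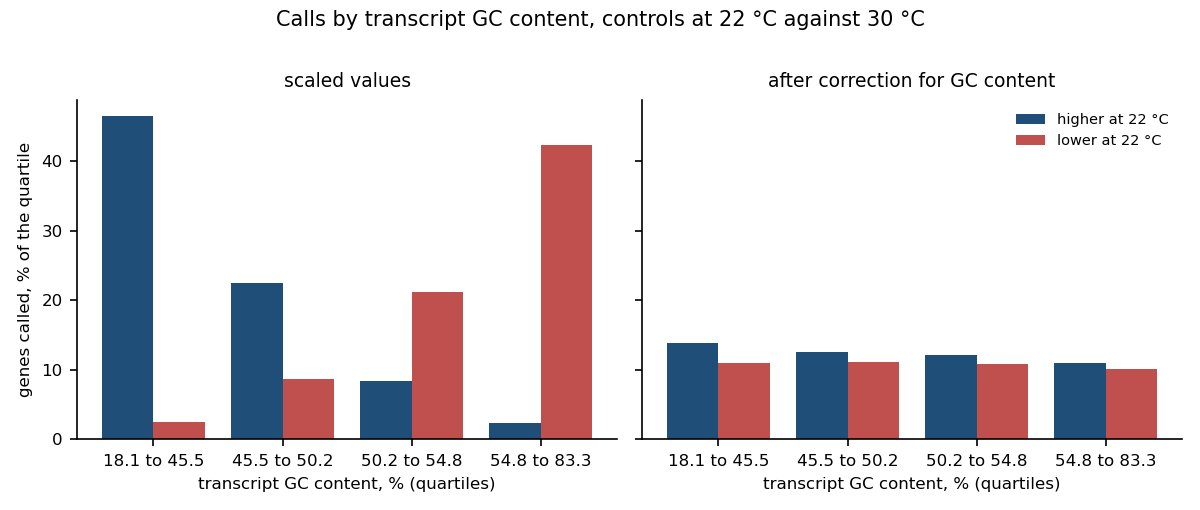
Share of genes called higher or lower at 22 °C in controls within each quartile of transcript GC content, on the scaled values (left) and after the correction for GC content (right). Calls higher at 22 °C fall from 46.5% in the lowest quartile to 2.38% in the highest on the scaled values, and the quartiles are alike after the correction.

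The knockouts, which are other animals with the same split of sex-linked transcripts, gave mostly the same directions. They had 6566 called genes (52.1%), 3243 (25.7%) higher and 3323 (26.4%) lower at 22 °C. Of the 4866 genes called in controls, 3928 (80.7%) were called in the same direction in knockouts and 4 in the opposite one. The shared genes were 81.3% of those higher and 80.1% of those lower in controls, and 63.0% and 56.7% of those in knockouts. All 24 largest differences were among them. The difference between the genotypes was tested as an interaction. In the main fit limma called 0 autosomal genes, with 1554 at an unadjusted p under 0.05 and a smallest adjusted p of 0.0508. With voom 0 were called, and the fit corrected for GC content called 14. Ucp1 was 1.40 in controls and 2.72 in knockouts, Fos -2.73 and -5.63, Cldn5 -2.59 and -4.39, Tusc3 -2.98 and -0.95, and Krt8 -3.41 and -1.10.

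**Figure D5:**
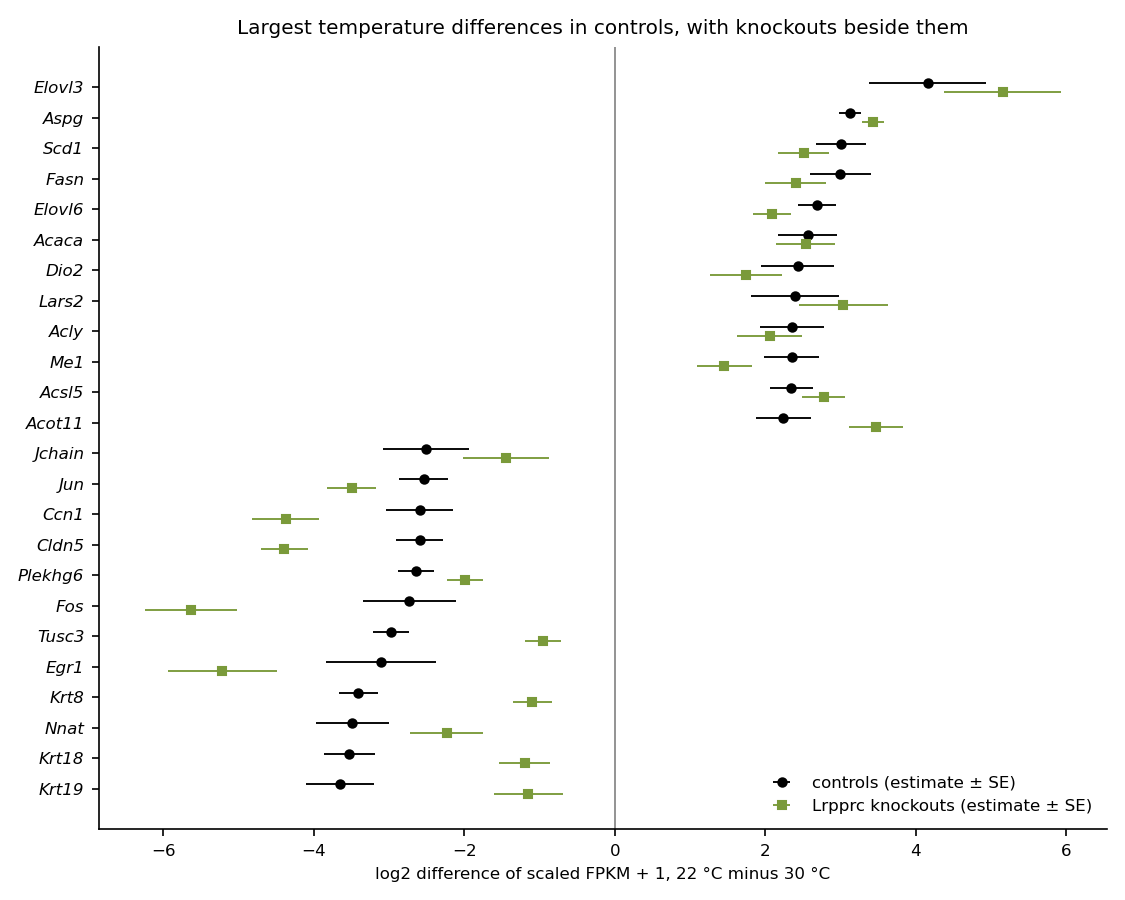
Log2 difference between 22 °C and 30 °C with its SE for the 12 largest called differences in each direction, in controls (circles) and in knockouts (squares). All 24 genes have the same sign in both genotypes, the keratins and Tusc3 are smaller in knockouts, and Fos, Egr1 and Cldn5 are larger.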

How the data were processed

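RNA sequencing libraries of brown adipose tissue from 14 mice were used, with a deposited column of FPKM for each animal; per the submitters' processing notes the genome build was mm9, and the aligner, counter and use of strand are not given in the sources used here. FPKM is not a count, so differences were tested on the log2 scale. Genes of at least 1 FPKM in at least 3 of the 14 libraries were kept, and each library was scaled by its median ratio to the geometric mean over 12341 autosomal genes. The table's Ensembl identifiers were matched to GENCODE M21 (34490 of 35275) for symbols, chromosomes and GC content. limma 3.58.1 (R 4.3.3; lmFit, eBayes with trend) fitted a mean for each of the 4 groups to log2(scaled FPKM + 1) in all 14 libraries. Benjamini-Hochberg adjustment ran over all 13079 genes. Tables and plots used Python 3.11.15, numpy 2.4.6, pandas 2.3.3, scipy 1.17.1 and matplotlib 3.10.9.

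Depth was worked out from what 1 read is worth among low FPKM values, of which at least 90.1% in each library were whole reads within 0.05 of a read. The p-values rest on a spread within groups that was estimated from all 14 libraries, knockouts included, and treat the animals as independent. Nothing says whether the animals of a group were littermates, in which case the p-values could be too small. Replicates differed by more than sampling noise, and none was counted together. On simulated controls (12178 genes, 200 changed), 59% of changes of log2 1 and 100% of log2 2 were recovered, and 7.06% of calls were unchanged genes. The simulated reads had the same dispersion, 0.05, for every gene and library. They held no trend with GC content and no split between E and R animals, so these rates need not hold for the real libraries.

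Named genes were the 12 largest called differences in each direction among protein-coding autosomal genes with groups that did not overlap and a mean of at least 5 FPKM, up to 4 called members of each list in each direction, its 2 highest members, and 8 fixed genes. The gene groups, lists and tests were chosen with earlier results of these data known. Other genes are marked as named after their values were seen.

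Alternatives were a correction of each library for GC content (lowess, span 0.3), other scalings, filters, a pseudocount of 0.1, sample weights, the controls fitted alone, each library left out, the E or R animals left out, and limma voom on recovered reads. Promoter windows were matched by symbol, since the files' build differs from that of the windows. No set test was run.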

Additional observations from a re-analysis of the deposited data

Results flagged for a closer look

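In the 4 controls at 22 °C, 109 genes named above were examined for an animal that stood apart from the other 3, and 10 had one; chance gives about 1 in 20. The fourth control was the lowest for Acaca (151 scaled FPKM) and Fasn (1229) and the highest for Fads2 (7.89) and Epcam (0.0299). The third was the highest for Nnat (102), Prdm16 (8.45), Slc2a1 (3.73) and Krt8 (0.0308). The first was the highest for Adrb1 (12) and the lowest for Fos (0.207). The values of Epcam and Krt8 lie under 0.169 FPKM, the value of 3 reads for 1 kb in the shallowest control, so they rest on few reads.

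Outside the autosomal comparison, Xist was at 9.57 scaled FPKM or more in the controls at 30 °C, and Ddx3y at 16.4 or more in those at 22 °C. Each was near 0 in the other group.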

How the results depend on the processing

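The number of called genes was 2913 after correction for GC content, 2182 with the 2 R animals alone as the 22 °C group and 748 at a log2 difference of at least 1, and 3357 to 5578 with 1 library left out. Over the other settings it was 3279 to 7271. The 3279 were among 7569 autosomal genes with a mean of at least 5 FPKM, and no filter on low values gave 4703 of 22925. The share of called genes higher at 22 °C was 34.7% with FPKM as deposited and 43.5% with the same total FPKM, beside 51.7%. Ucp1 gave 0.87 (adjusted p = 0.101) with the R animals alone, 1.17 to 1.63 with 1 library left out, and passed in all settings but the first. The share of called genes also called in knockouts was 74.3% after the GC correction, beside 80.7%. The median of branched-chain amino acid genes was -0.0404 with the R animals alone, and Fabp4 was -0.0079 with quantile normalization. Of 2148 values over 108 other named genes, 2020 kept direction and side of the threshold. Leaving out 1 library ended the call of 17 genes. The use of recovered reads with voom and of the R animals alone was chosen after seeing the data. The cause of these changes was not tested. Depth limits genes under about 0.169 FPKM for a transcript of 1 kb, the value of 3 reads in the shallowest control, and covers counting error only. No paired analysis was possible because the replicate numbers only name animals in accession order.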
